A study of Mus musculus with 6 samples.

Results

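The MYC and MAX network consists of basic helix-loop-helix leucine zipper transcription factors that bind DNA as dimers, and 10 of its genes were followed here in pro-B cells with and without induced PU.1. The members were found by exact symbol in the deposited gene table: Myc, Mycn, Mycl, Max, Mxd1, Mxd3, Mxd4, Mxi1, Mnt and Mlx. All 10 were among its 23793 rows. Messenger RNA came from i660BM cells, a C57BL/6 pro-B cell line with a doxycycline-inducible PU.1, grown in medium with interleukin 7. Pro-B cells are precursors early in the B lineage, and PU.1, encoded by Spi1, is a transcription factor with an ETS domain. The 3 induced libraries had 48 h of doxycycline at 70 ng/ml, and the 3 non-induced libraries came from the same line without it. No library carried the drug without the induced factor, so the drug and PU.1 cannot be told apart. The line is a single cultured line, so differences between mice were not sampled.

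MYC proteins bind DNA, mostly at E-box sequences, only after pairing with MAX, and the pair activates genes for ribosome production, metabolism and growth. The MXD proteins, MXI1 and MNT compete for the same partner and recruit SIN3 repressor complexes to the same sites. MLX is a MAX-like protein that pairs with MondoA, ChREBP and some MXD proteins. In pro-B cells Myc and Mycn are known for their part in growth driven by interleukin 7.

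Depth and identity were checked first. The lowest FPKM values lay on steps worth about 119000000 fragments in the non-induced group and 121000000 in the induced group, and how these were spread over the libraries of a group is unknown. FPKM values are fragment counts scaled per kilobase of transcript and per unit of depth, so levels can be set side by side between genes. The table gives 1 FPKM value per group, so overlap between libraries of the groups cannot be judged. Spi1 stood at 36.0 FPKM without and 246 FPKM with induction according to the authors' deposited table. The 11 pro-B markers summed to 3467 FPKM without and 5529 FPKM with induction according to the authors' deposited table. The 10 macrophage and granulocyte markers found summed to 2.28 and 23.3 FPKM according to the authors' deposited table. The 3 tested ones rose there, Lyz2 from 0.361 to 15.2 FPKM, Cd68 from 1.85 to 6.86 FPKM and Mpeg1 from 0.0514 to 0.907 FPKM. Of the untested ones, Csf1r (0 to 0.192 FPKM), Itgam (0.0133 to 0.151 FPKM) and Adgre1 (0 to 0.0512 FPKM) had higher values with induction. Mpo (0.00358 to 0 FPKM) had a lower one. Values of 0 without and with induction were given for Elane, S100a8 and S100a9. The 7 T cell markers found summed to 5.06 and 7.09 FPKM according to the authors' deposited table. Most of this was Cd2, which rose from 4.62 to 6.68 FPKM there, while Cd3e and Cd4 were listed at 0 in both groups. The 6 erythroid and megakaryocyte markers found summed to 1.53 and 0.901 FPKM, and the 7 stromal markers to 0.259 and 0.494 FPKM, according to the authors' deposited table. Whether the rise of the myeloid markers had a part in any result below was not tested. In bulk RNA fewer cells with a transcript and less of it per cell cannot be told apart.

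Induction was accompanied by lower Myc and Mycn, lower Mxd1 and Mxd4, and higher Mxd3, while Max, Mnt and Mlx were not called. A gene was called, and is said to rise or fall, where the authors had tested it with Cuffdiff and their adjusted p was under 0.05. Of the 10 members 8 were tested, and of these 4 fell and 1 rose. Among all 10657 tested genes 35.1% were called, 19.0% higher and 16.1% lower. The 4 falls and the rise were each of at least 1.5-fold, and 3.85% of tested genes were called lower and 6.34% called higher with a change of that size. All 5 called members had the smallest adjusted p of the authors' deposited table, 0.000287 by Cuffdiff, the value of all 1855 genes at the smallest p-value. Mycl and Mxi1 were not tested.

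Other call rules were read the same way. The same 4 members were called lower under each of the 5 rules tried, whereas the rise of Mxd3 was not called with normal p-values and could not be counted without rows that share a stretch of the genome with another. With p-values taken from the test statistic as a normal deviate, 15.2% of tested genes were called, 956 genes higher and 656 genes (6.17%) lower. At a threshold of 0.01 the background was 25.9% (14.8% higher, 11.1% lower) and with a fold of at least 1.5 it was 10.2%. Among genes with a mean of at least 1 FPKM it was 34.7% (18.6% higher, 16.2% lower), and without such shared rows it was 38.7% (20.6% higher, 18.0% lower).

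**Figure D1:**
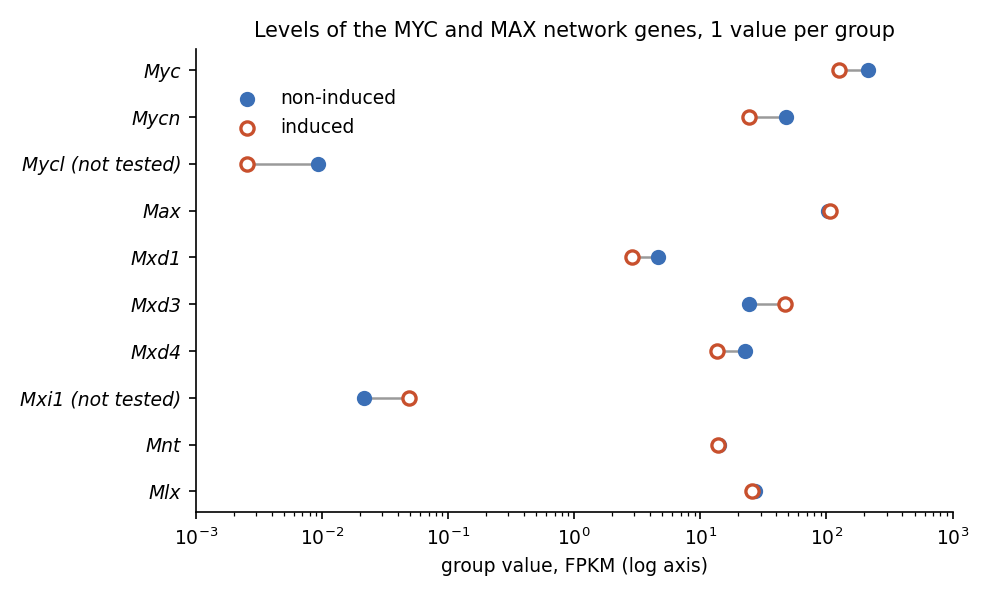
Level of each of the 10 network genes in FPKM on a log axis, with 1 filled point for the non-induced and 1 open point for the induced group value and no error, since the table holds group values only. Myc and Max had the highest levels in both groups, Mycn moved from 47.4 to 24.1 FPKM, and Mycl and Mxi1 lay under 0.05 FPKM.

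Myc was the most abundant member in both groups. It encodes c-MYC, and its level stood at 212 FPKM without and 125 FPKM with induction according to the authors' deposited table. The fall was 1.70-fold, with log2 change -0.76 and implied standard error 0.14 according to the authors' deposited table (Cuffdiff, adjusted p = 0.000287). The implied standard error is the log2 change divided by the deposited test statistic, a reading that the table does not state. For Myc, 1.96 of them on each side give an interval of -1.04 to -0.49. Read as a normal deviate, the statistic of Max gives p = 0.705, against p = 0.520 by the authors' Cuffdiff test. Intervals can thus be wider than that test implies, and an interval and a call can disagree. The level of Myc, as the mean of the groups, exceeded that of 95.8% of tested genes, and its log2 change ranked at percentile 2.99 of their changes. It is a protein-coding gene of chromosome 15, 61985391 to 61990374 on the plus strand (mm10, GENCODE M21).

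Mycn had the largest fall of the tested members. It encodes N-MYC and stood at 47.4 FPKM without and 24.1 FPKM with induction according to the authors' deposited table. This was a 1.96-fold fall, with a log2 change of -0.97 and an implied standard error of 0.13 according to the authors' deposited table (Cuffdiff, adjusted p = 0.000287). Its change did not differ from that of Myc beyond their errors, with a difference of 0.21 on the log2 scale and an interval of -0.16 to 0.58. Mycn occupies 12936093 to 12941914 of chromosome 12 (minus strand). The remaining MYC gene, Mycl, was put at 0.00936 and 0.00254 FPKM according to the authors' deposited table. On its longest annotated coding transcript these values are worth about 3.90 and 1.07 fragments over all libraries of a group, so no fold is read from them. Mycl occupies 122995652 to 123002485 of chromosome 4 (plus strand).

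The dimer partner of the MYC proteins was second in abundance and showed no called change. Max stood at 104 FPKM without and 107 FPKM with induction according to the authors' deposited table, a log2 change of 0.05 with an interval of -0.22 to 0.33 (Cuffdiff, adjusted p = 0.677). The change of Myc lay below that of Max by 0.82 on the log2 scale, with an interval of the difference of -1.21 to -0.43. Max occupies 76937269 to 76962201 of chromosome 12 (minus strand).

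Mlx, which encodes the MAX-like partner of MondoA, was put at 27.1 and 25.8 FPKM according to the authors' deposited table (log2 change -0.07, interval -0.40 to 0.26, Cuffdiff, adjusted p = 0.653). It occupies 101087277 to 101092207 of chromosome 11 (plus strand) and overlaps Psmc3ip on the opposite strand by 385 bases. The 2 genes share a bundle, a stretch of the genome quantified together. Psmc3ip itself rose from 18.4 to 24.2 FPKM according to the authors' deposited table (Cuffdiff, adjusted p = 0.0479).

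**Figure D2:**
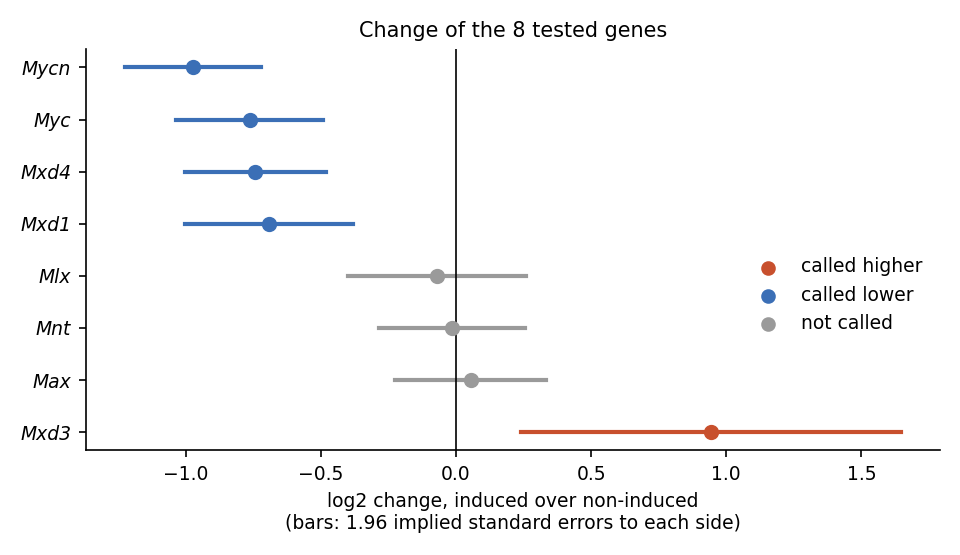
Log2 change of the 8 tested members, induced over non-induced, with bars of 1.96 implied standard errors to each side. The intervals of Mycn, Myc, Mxd4 and Mxd1 lie below 0 and that of Mxd3 above it, while those of Mlx, Mnt and Max include 0. The Mxd3 bar is the widest.

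The MXD and MNT repressors went in different directions. Mxd1, which encodes MAD1, was the least abundant tested member, at 4.64 FPKM without and 2.88 FPKM with induction according to the authors' deposited table. Its fall was 1.62-fold, with log2 change -0.69 and implied standard error 0.16 according to the authors' deposited table (Cuffdiff, adjusted p = 0.000287). Mxd4, which encodes MAD4, fell 1.67-fold, from 22.6 to 13.5 FPKM according to the authors' deposited table, with a log2 change of -0.74 and an implied standard error of 0.13 (Cuffdiff, adjusted p = 0.000287). The changes of Mxd1 and Mxd4 differed from each other by 0.05 on the log2 scale, with an interval of -0.35 to 0.46, and neither differed from that of Myc beyond its error. Mxd1 occupies 86647042 to 86669161 of chromosome 6 (minus strand) and Mxd4 occupies 34173883 to 34187720 of chromosome 5 (minus strand). An annotated antisense transcript, Gm42846, overlaps 1001 bases of Mxd4, and the setting for strand in the authors' counting is not given in the sources used here.

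Mxd3 moved the other way. It encodes MAD3, the MXD protein known for expression in S phase, and stood at 24.3 FPKM without and 46.8 FPKM with induction according to the authors' deposited table. The 1.92-fold rise was a log2 change of 0.94 according to the authors' deposited table (Cuffdiff, adjusted p = 0.000287), with an implied standard error of 0.36 and an interval of 0.24 to 1.65. That standard error is larger than those of 91.3% of tested genes, against a median of 0.151. When the authors' deposited statistic of 2.63 was read as a normal deviate and adjusted over all genes, the call was lost (adjusted p = 0.0548), whereas the falls of Myc, Mycn, Mxd1 and Mxd4 were kept, with adjusted p-values of at most 0.000208. Of the 1855 genes at the smallest Cuffdiff p-value, 261, Mxd3 among them, had a statistic no larger in size than 2.63. Mxd3 occupies 55325168 to 55329823 of chromosome 13 (minus strand) and overlaps the end of Prelid1, on the opposite strand, by 105 bases. The table quantified both in 1 bundle, and Prelid1 was put at 218 and 188 FPKM according to the authors' deposited table, without a call (Cuffdiff, adjusted p = 0.0600). Whether fragments of the overlap were split between these genes was not tested.

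Mnt, which encodes the most widely expressed MAX-dependent repressor, stood at 14.1 FPKM without and 13.9 FPKM with induction according to the authors' deposited table. Its log2 change was -0.01 with an interval of -0.28 to 0.26 by the authors' Cuffdiff test (adjusted p = 0.926). It occupies 74830920 to 74845725 of chromosome 11 (plus strand). Mxi1, the MXD family member once called MAD2, was put at 0.0214 and 0.0488 FPKM according to the authors' deposited table and was not tested. These values are worth about 12.8 and 29.7 fragments on its longest coding transcript, and values near 0 in untested rows can be failed estimates. Mxi1 occupies 53310518 to 53375810 of chromosome 19 (plus strand). Of the 28 pairs that the 8 tested members form, 19 had a difference in log2 change whose interval excluded 0, and Mxd3 stood above each of the other 7 by such a margin.

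**Figure D3:**
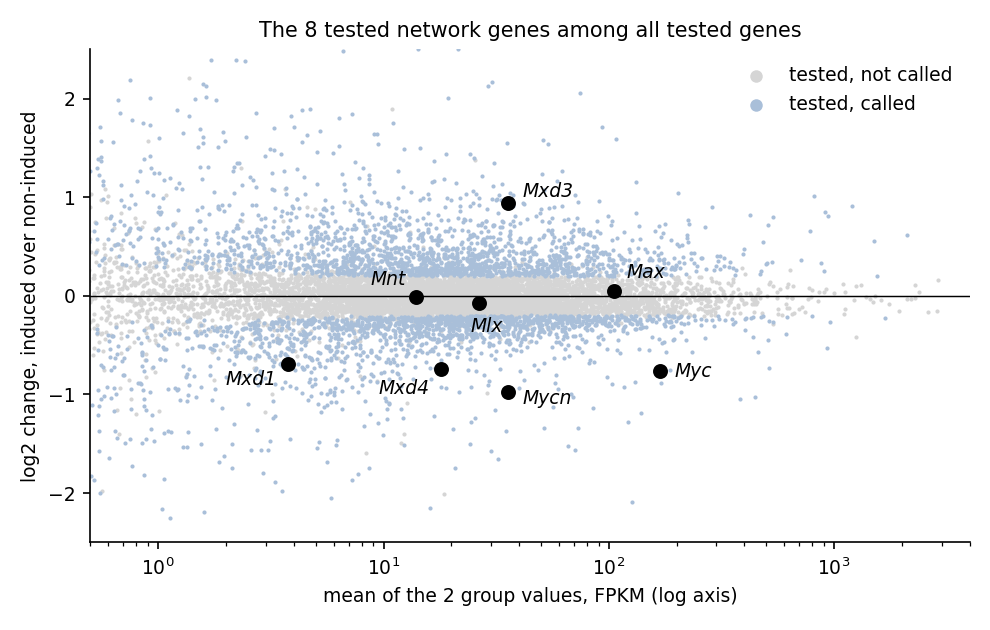
Log2 change against the mean of both group values in FPKM (log axis) for tested genes, called ones in blue and others in grey, with the 8 tested members as labelled black points. Of 10628 genes with a finite change, 588 lie outside the axes. Max, Mnt and Mlx lie in the band of genes that were not called, Mycn, Myc, Mxd4 and Mxd1 lie below it and Mxd3 lies above it.

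The 250 bases before the annotated start of 4 members are shown because these genes fell (Mycn, Mxd4), rose (Mxd3) or stayed uncalled (Mnt), so the sequence before their starts can be read beside their changes. Sequences are from RefSeq, build GRCm38.p6, 5′ to 3′ on the strand of the gene, at chr12:12941837-12942086 (minus) for Mycn, chr5:34187711-34187960 (minus) for Mxd4, chr13:55329732-55329981 (minus) for Mxd3 and chr11:74830674-74830923 (plus) for Mnt. Capitals mark matches to any of 4 motifs on either strand.
Mycn: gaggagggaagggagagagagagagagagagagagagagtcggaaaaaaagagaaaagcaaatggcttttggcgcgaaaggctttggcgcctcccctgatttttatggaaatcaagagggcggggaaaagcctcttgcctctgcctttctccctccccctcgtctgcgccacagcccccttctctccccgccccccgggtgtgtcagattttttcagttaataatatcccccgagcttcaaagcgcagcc
Mxd4: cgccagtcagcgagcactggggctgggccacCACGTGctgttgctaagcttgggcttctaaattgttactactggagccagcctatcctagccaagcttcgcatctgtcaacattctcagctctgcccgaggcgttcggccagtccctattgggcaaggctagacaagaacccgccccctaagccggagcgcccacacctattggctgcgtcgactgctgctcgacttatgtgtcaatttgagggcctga
Mxd3: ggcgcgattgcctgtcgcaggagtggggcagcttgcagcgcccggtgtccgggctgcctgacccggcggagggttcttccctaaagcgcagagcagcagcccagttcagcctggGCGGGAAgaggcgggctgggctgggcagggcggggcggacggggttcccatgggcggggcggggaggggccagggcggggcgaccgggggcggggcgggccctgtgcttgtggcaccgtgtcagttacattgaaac
Mnt: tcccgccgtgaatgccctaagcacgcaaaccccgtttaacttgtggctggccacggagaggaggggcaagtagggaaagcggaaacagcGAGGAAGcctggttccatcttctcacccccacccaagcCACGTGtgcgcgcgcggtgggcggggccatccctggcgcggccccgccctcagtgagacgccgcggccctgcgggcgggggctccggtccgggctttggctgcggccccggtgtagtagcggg
The motifs were the E-box CACGTG bound by MYC and MAX dimers, GAGGAAG as a PU.1-like core, TTCNNNGAA as a STAT-like element and TTCCCGC as an E2F-like element. Of the 10 members, 9 matched the promoter table, with 11 windows, and Myc did not. An E-box lay 219 to 214 bases before the start of Mxd4, 123 to 118 before Mnt and 40 to 35 before Mlx, and 6.02% of 32851 windows of this length hold one. The PU.1-like core occurred 161 to 155 bases before Mnt, a member with no called change, and 10.6% of all windows hold it. The E2F-like element occurred 136 to 130 bases before Mxd3, and 3.82% of all windows hold it. No member window held the STAT-like element, found in 7.02% of all windows. No 2 matches overlapped. The 11 member windows held 53.6% to 78.4% G and C, all above the median of 52.4% over all windows, and the shares over all windows were not matched for this. A match is a description of letters, not evidence of binding, and the lack of a match covers these windows only.

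Summed by role, MYC transcripts were lower relative to Max transcripts with induction. The 3 MYC genes summed to 260 FPKM without and 149 FPKM with induction from the authors' deposited table, and the log2 change was -0.80 with a propagated standard error of 0.12. The ratio of that sum to Max went from 2.51 to 1.39, a log2 change of -0.85 with an interval of -1.21 to -0.49. Errors of sums and ratios were propagated from the implied standard errors, with the genes taken as independent, and untested members were given no error.

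The summed repressors depended on Mxd3. Mxd1, Mxd3, Mxd4, Mxi1 and Mnt together went from 65.7 to 77.1 FPKM (log2 change 0.23, interval -0.20 to 0.66), from values of the authors' deposited table. Without Mxd3 the sum went from 41.3 to 30.3 FPKM (log2 change -0.45, interval -0.62 to -0.27). The ratio of MYC genes to these repressors went from 3.95 to 1.93 with Mxd3 and from 6.28 to 4.91 without it, with log2 changes of -1.03 (interval -1.52 to -0.54) and -0.35 (interval -0.64 to -0.07). The ratio of the repressors to Max had a log2 change of 0.18 (interval -0.33 to 0.69) with Mxd3 and of -0.50 (interval -0.83 to -0.17) without it.

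The makeup of the network shifted with these changes. Myc made up 46.6% of the summed level of the 10 genes in non-induced and 34.8% in induced cells. The share of Mycn went from 10.4% to 6.71%, that of Max from 22.7% to 29.9% and that of Mxd3 from 5.34% to 13.0%. Mycn was the third gene by level in non-induced cells, ahead of Mlx, Mxd3 and Mxd4, and in induced cells Mxd3 held that place. The levels of Mlx, Mxd3 and Mxd4 in non-induced cells, 27.1, 24.3 and 22.6 FPKM, and those of Mlx and Mycn in induced cells, 25.8 and 24.1 FPKM, according to the authors' deposited table lie close together, and without values per library their order has no error to be judged by.

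**Figure D4:**
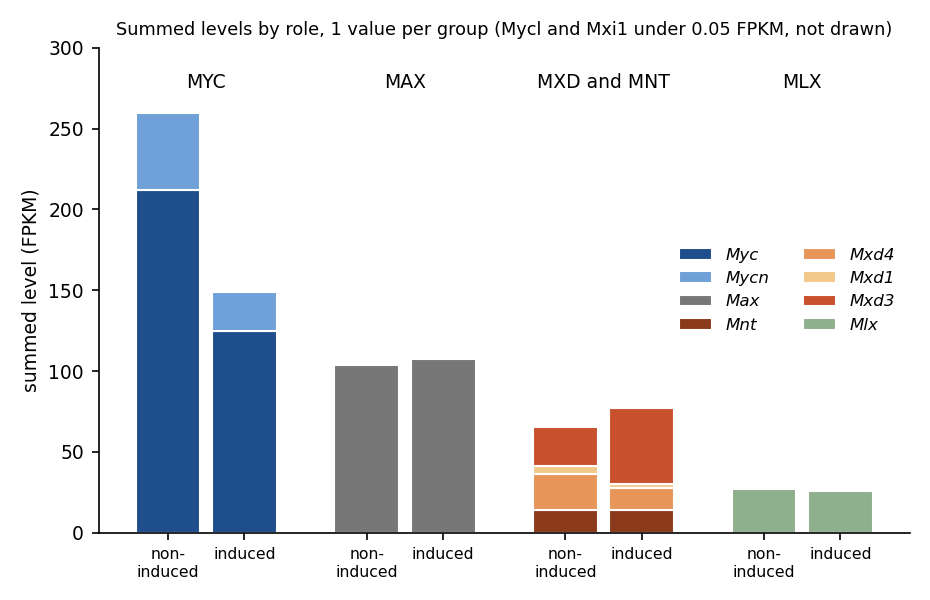
Summed level in FPKM by role, with stacked bars per gene for the non-induced and the induced group and no error bars, since each group has 1 value. The MYC bar went from 260 to 149 FPKM, the Max and Mlx bars stayed near their heights, and the Mxd3 segment grew from 24.3 to 46.8 FPKM within the repressor bar.

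Of the dimer partners outside the 10 genes, MondoA transcripts rose. Mlxip, which encodes MondoA, a glucose-responsive partner of MLX, went from 15.9 to 25.1 FPKM according to the authors' deposited table (log2 change 0.66, implied standard error 0.15, Cuffdiff, adjusted p = 0.000287). Mga, which encodes a large MAX partner with a T-box, had 15.0 and 13.5 FPKM according to the authors' deposited table, with no call (Cuffdiff, adjusted p = 0.164). Mlxipl, which encodes ChREBP, was listed at 0 in both groups. Of 7 described targets of MondoA and ChREBP 4 were tested, and 2 of these rose and 2 fell. This was 50% in each direction, against 19.0% higher and 16.1% lower over all tested genes. Txnip, which encodes a brake on glucose uptake, went from 49.9 to 96.2 FPKM and Klf10 from 11.1 to 13.4 FPKM according to the authors' deposited table, whereas Fasn (105 to 75.2 FPKM) and Acaca (9.26 to 7.97 FPKM), both of fatty acid synthesis, fell there. Under normal p-values the calls of Txnip and Fasn were kept and those of Klf10 and Acaca were lost. Txnip shares its bundle with another row.

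Other factors of the same protein class are given for comparison. Of 9 basic helix-loop-helix leucine zipper genes outside the network 7 were tested, and 3 of them rose by less than 1.5-fold. This was 42.9% of the tested genes of the list, against 19.0% called higher over all tested genes. These were Tfe3 (log2 change 0.39), Usf1 (0.29) and Tfeb (0.25) according to the authors' deposited table. The median log2 change of the 7 was 0.18, against -0.01 over all tested genes, and under normal p-values none of the 3 calls was kept. Whether the members and this list differ was not tested.

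Most cofactors of MYC were not called. Of 15 MYC cofactors, all tested, 2 fell, the acetyltransferase gene Kat2a (log2 change -0.28) and Wdr5 (-0.21), which encodes a chromatin adaptor that binds MYC, according to the authors' deposited table. The share called lower, 13.3%, was near the 16.1% over all tested genes. Under normal p-values both calls were lost. The median log2 change was 0.05 for these cofactors and 0.01 for 14 corepressor genes of the SIN3 and NCOR complexes, all tested.

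Of 17 genes that act on MYC protein stability, all tested, 5 rose and 2 fell, each by less than 1.5-fold, with a median log2 change of 0.04. The share called, 41.2%, was near the 35.1% over all tested genes. Without rows that share a bundle 1 rise and both falls were called. That rule leaves out listed genes such as Skp2 and Ppp2r5a, and over all genes tested under it 38.7% were called. The ubiquitin ligase genes Skp2 (log2 change 0.32) and Btrc (0.29) and the phosphatase subunit gene Ppp2r5a (0.27) rose according to the authors' deposited table. The deubiquitinase genes Usp36 (-0.39) and Usp22 (-0.25) fell there. With normal p-values from the authors' statistic 1 of these 7 calls was kept, that of Usp36 (adjusted p = 0.0375). Of 9 genes for factors that bind the Myc transcript or promoter region, or lie beside Myc, 7 were tested. Of these 1 rose (14.3%, against 19.0% over all tested genes), Ctcf (log2 change 0.27 according to the authors' deposited table). That call was lost under normal p-values.

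Of 14 described regulators of Myc transcription, all tested, 8 rose, Spi1 among them by design, and 2 fell, against 19.0% higher and 16.1% lower over all tested genes. Their median log2 change was 0.30. Pax5 and Ebf1, among the rises, also stand in the pro-B marker list. At 1.5-fold 2 of the 8 rises remained, those of Spi1 and Bcl6. Bcl6, which encodes a repressor of germinal center B cells, went from 0.601 to 2.13 FPKM and Foxo1 from 32.5 to 48.6 FPKM according to the authors' deposited table. Irf4, which encodes an interferon regulatory factor that pairs with PU.1, fell from 100 to 62.9 FPKM and Stat5b, which acts downstream of the interleukin 7 receptor, from 16.9 to 14.0 FPKM according to the authors' deposited table. The call of Stat5b was lost under normal p-values, while those of Bcl6, Foxo1 and Irf4 were kept.

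Falls were more numerous than rises in the lists of described MYC targets for ribosome assembly, metabolism and protein synthesis, none of them of 1.5-fold or more. Of 20 nucleolar and ribosome assembly genes, all tested, 14 fell (70%, against 16.1% lower over all tested genes), and all 20 had a log2 change below 0. Their median log2 change was -0.23, against -0.01 over all tested genes. Polr1b, which encodes a subunit of RNA polymerase I, went from 31.4 to 23.5 FPKM according to the authors' deposited table (log2 change -0.42), followed by Gnl3, a nucleolar GTPase gene (-0.31), and Dkc1, the pseudouridine synthase gene (-0.31). With normal p-values from the authors' statistic the call was kept for Polr1b alone (adjusted p = 0.0228). That is 1 of the 20 genes, against 6.17% called lower over all tested genes under that rule. At a threshold of 0.01, 5 of the 20 were called lower, against 11.1% over all tested genes. Without rows that share a bundle 8 were called lower. That rule leaves out listed genes such as Ncl, Bop1 and Gnl3, so the 8 are out of fewer than 20. Over all genes tested under it 18.0% were called lower.

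Of 19 genes of metabolism and transport, all tested, 8 fell (42.1%, against 16.1% over all tested genes) and 2 rose (10.5%, against 19.0%), with a median log2 change of -0.17. The glycolysis genes Eno1 (log2 change -0.55) and Ldha (-0.44) and the nucleoside diphosphate kinase gene Nme1 (-0.43) led the falls according to the authors' deposited table, and the purine synthesis gene Paics (0.27) and the amino acid transporter gene Slc7a5 (0.26) rose there. Eno1 and Ldha have processed copies elsewhere in the genome, with which fragments can be shared. Of 14 genes of translation, chaperones and mitochondria, all tested, 7 fell (50%, against 16.1%), with a median log2 change of -0.18. Prdx3 (-0.41), a mitochondrial peroxidase gene, Phb (-0.38), a prohibitin gene, and Eif5a (-0.27), a translation factor gene, led them according to the authors' deposited table. Under normal p-values 4 of the 19 and 2 of the 14 were called lower, against 6.17% over all tested genes under that rule.

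**Figure D5:**
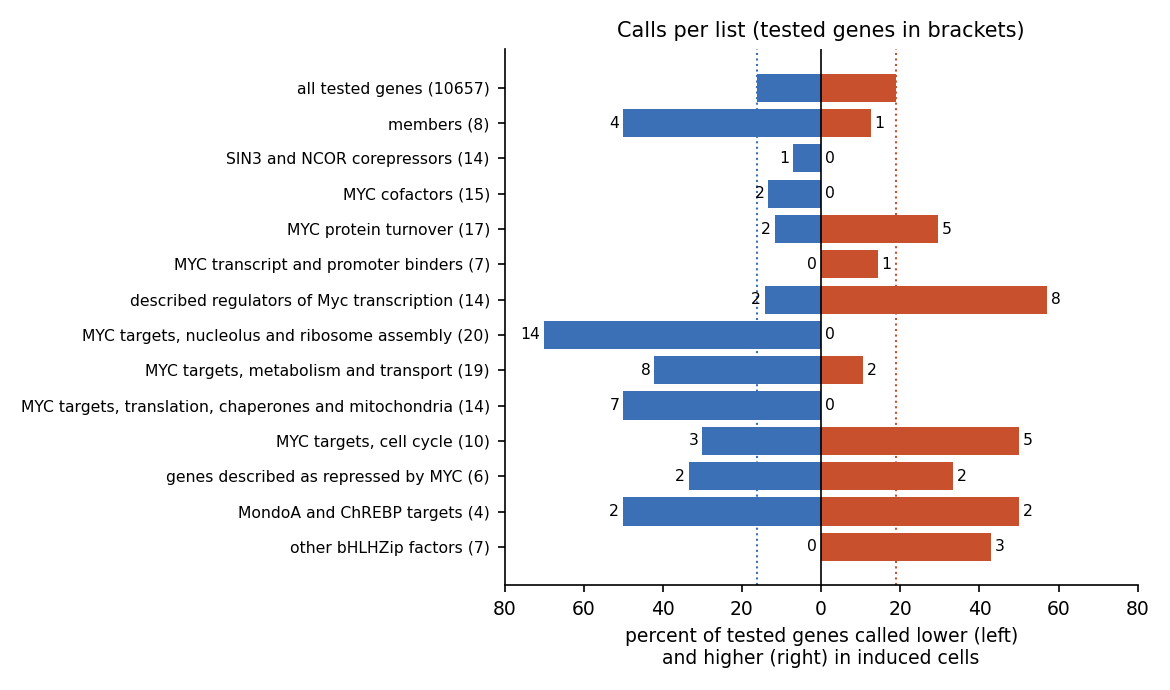
Percent of tested genes called lower (blue, left) and higher (red, right) in induced cells for the members and for lists with at least 4 tested genes, with the number called at each bar and the number tested in brackets. Dotted lines mark the percentages over all tested genes, 16.1% lower and 19.0% higher. The members and the 3 target lists of ribosome assembly, metabolism and translation extend past the left line. Past the right line extend the regulators of Myc transcription, Spi1 included, the MYC protein turnover genes and the other basic helix-loop-helix leucine zipper factors. The cell cycle targets, the MondoA and ChREBP targets and the genes described as repressed by MYC extend past both.

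Of 10 cell cycle targets, all tested, 5 rose and 3 fell, against 19.0% higher and 16.1% lower over all tested genes, with a median log2 change of 0.18. The S phase transcription factor genes E2f1 (16.7 to 28.6 FPKM) and E2f2 (27.7 to 47.0 FPKM) and the origin licensing gene Mcm5 (147 to 189 FPKM) rose according to the authors' deposited table. The cyclin gene Ccnd2 (29.6 to 18.9 FPKM), the telomerase gene Tert (0.481 to 0.335 FPKM) and the kinase gene Cdk4 (508 to 438 FPKM) fell according to the authors' deposited table. Under normal p-values E2f1 and E2f2 alone kept their rise and Ccnd2 alone its fall.

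Genes described as repressed by MYC were split. Of 12 listed 6 were tested, and 2 rose and 2 fell. This was 33.3% in each direction, against 19.0% higher and 16.1% lower over all tested genes. The inhibitors of cyclin-dependent kinases Cdkn1b (21.4 to 42.0 FPKM) and Cdkn1a (4.03 to 6.72 FPKM), for p27 and p21, rose according to the authors' deposited table. Ndrg1, named as a gene downstream of N-MYC (9.02 to 4.07 FPKM), and the inhibitor gene Cdkn2b (6.02 to 3.28 FPKM) fell there. These 4 calls were kept under normal p-values.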

How the data were processed

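Messenger RNA libraries, 3 from non-induced and 3 from induced cells, were stranded, per the labels' protocols. Trim Galore 0.2.8.1, TopHat2 2.0.9, Cufflinks, Cuffdiff 2.1.1 were used on build mm10, per the submitters' processing notes. Sources used here do not name the gene annotation or the strand setting. The deposited table holds 1 FPKM value per gene and group, and, per gene, the authors' fold change on the log2 scale, their test statistic (a score), the p-value and its adjusted value. The authors had tested 10657 of 23793 rows. Nothing says that libraries came from separate cultures, so the p-values may measure technical spread. Calls used the authors' adjusted p under 0.05, which a Benjamini-Hochberg recomputation matched within 5.15e-07.

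Implied standard errors, sums, shares and motif matches were computed here with Python 3.11.15, pandas 2.3.3 and scipy 1.17.1, and the call rules were tested on simulated data. Depth came from FPKM multiplied by length in genes with 1 transcript of at least 1000 bases. There 68.6% and 60.5% of low values lay within 0.15 of a whole number of fragments, against 30% for evenly spread values. The step was the median of 111 of the 207 non-induced and 102 of the 266 induced low values themselves. Part of this closeness was therefore fixed in advance, and the 30% is not a like comparison. Members and lists were chosen with earlier results of these data known. Named are all members, the MLX and MGA arms, Spi1 and, per companion list and direction, the 3 called genes with the largest changes. Of the marker lists only some genes are named, and called ones such as Igll1, Rag1 and Dntt are left out. Prelid1, Psmc3ip and Gm42846 were named after the values were seen, because they overlap members. Single marker genes were also named after the values were seen. For the corepressor list, single genes are not reported here. Genes of most similar pattern were not named, since 2 group values give no pattern. Alternatives were normal p-values from the statistic (29 tested rows without a finite one were left out), a threshold of 0.01, a fold of 1.5, a minimum of 1 FPKM, pseudocounts of 1 and 0.1, 2 scalings and leaving out shared bundles.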

Additional observations from a re-analysis of the deposited data

How the results depend on the processing

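The 4 falls among the members were called under all 5 alternative call rules, and their log2 changes kept their sign under both pseudocounts and both scalings, which shifted all genes by 0.01 or less. The 1 rise, that of Mxd3, was not called when p-values came from the test statistic as a normal deviate, and without shared bundles it could not be counted, so both gave 0 rises in place of 1. Over the 149 tested genes of the 13 companion lists, 29 rises became 13 with normal p-values and 8 at 1.5-fold. Over all tested genes 19.0% were called higher, with 956 of 10628 under normal p-values and 6.34% at 1.5-fold. The 43 falls became 14 with normal p-values, 25 at the 0.01 threshold and 5 at 1.5-fold. Called lower over all tested genes were 16.1%, with 6.17% under normal p-values, 11.1% at the 0.01 threshold and 3.85% at 1.5-fold. The cause of the lower counts was not tested beyond what the stricter rules imply by construction. Leaving out Myc, the most abundant member, took the share of Max from 22.7% to 42.5% in non-induced and from 29.9% to 45.8% in induced cells, by construction. Leaving out Mxd3, chosen after seeing the data, took the log2 change of the ratio of MYC genes to repressors from -1.03 to -0.35 and turned that of the repressors to Max from 0.18 to -0.50. No paired analysis was possible because the table holds 1 value per group and none per library, and leaving out replicates could not be run for the same reason. The values of Mycl and Mxi1 rest on few fragments, and whether depth or failed estimates had a part in this was not tested.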
